A study of Drosophila melanogaster with 18 samples.

Results

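Translation factors load the ribosome onto an mRNA and carry it along the coding sequence, and the genes described here are those that fly annotation names as initiation factors (eIF) or elongation factors (eEF). They are the rows of the deposited gene table whose symbol in the BDGP6.54 annotation starts with eIF or eEF. There were 52 of them among 14237 genes, and 51 entered the tests, because eIF3g2 had 6 counts over all libraries. By role, 16 encode subunits of eIF3, 13 belong to the eIF4 group, 8 to eIF2 and eIF2B, 8 to elongation, and 7 act in start codon recognition and subunit joining.

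RNA of ovaries from newly born Drosophila melanogaster females was profiled in 18 libraries of 7 genotypes, and each library pooled about 100 ovary pairs. Canton S (CS, 4 libraries) and yw (3 libraries) served together as the wild type. The emerin mutants combine null alleles as G/PI (2 libraries) or G/PK (2 libraries). Emerin is a LEM-domain protein of the nuclear lamina, the protein network under the inner nuclear membrane, and the G/PI and G/PK females lack it in every cell. In baf GLKD (2 libraries), the lamina partner BAF was knocked down by a transgene that the nos driver switches on in germ cells only, and nosgal4 (2 libraries) carried the driver alone. By the labels, only the baf GLKD flies were raised at 25 °C and the rest at room temperature, whereas the methods name 25 °C for every cross. If the labels hold, temperature cannot be told apart from the knockdown. The chk2, emerin double mutant (3 libraries) also lacks the checkpoint kinase Chk2, in the G/PK background. Separate ovary collections are stated for the libraries of a genotype. In the 4 main comparisons CS was pooled with yw and G/PI with G/PK. The spread behind their p-values thus holds differences between these strains and between these alleles, besides those between collections. In the fits it was estimated over all genotypes together.

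Initiation begins when eIF2, carrying GTP and the initiator tRNA, joins the small ribosomal subunit together with eIF1, eIF1A, eIF3 and eIF5. The mRNA is recruited through its cap by eIF4E, the scaffold eIF4G and the helicase eIF4A. Once the start codon is found, eIF5B brings in the large subunit, and eIF2B recharges eIF2 with GTP. In elongation, eEF1alpha delivers aminoacyl-tRNA, a complex of eEF1beta, eEF1gamma and eEF1delta reloads eEF1alpha with GTP, eEF2 moves the ribosome by a codon, and eEF5 (eIF5A of other species) helps at stalling sequences. Germ cells of the fly ovary are known for heavy protein synthesis and for strong translational control of maternal mRNAs.

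Levels of the members differed by a wide margin. Levels between genes are compared in TPM, a unit that corrects for transcript length and library depth. The highest means over all 18 libraries were those of eEF1alpha1 (8519 TPM), eEF5 (3820 TPM), eEF2 (2812 TPM), eEF1beta (1721 TPM) and eEF1gamma (1696 TPM), all of them elongation factors, followed by eIF4A with 1562 TPM. The 16 genes of eIF3 held one main copy of each subunit at a mean between 205 TPM (eIF3j) and 388 TPM (eIF3b), and 3 second copies (eIF3d2, eIF3f2 and eIF3g2) that all had a mean under 0.285 TPM. The 5 subunits of eIF2B lay between 33.2 TPM (eIF2Bgamma) and 50.7 TPM (eIF2Bbeta), below the 3 subunits of eIF2 they act on, at 247 TPM (eIF2gamma) to 404 TPM (eIF2beta). Together the 52 members summed to a median of 45334 CPM in the wild type, 30800 CPM in emerin, 52829 CPM in nosgal4, 35830 CPM in baf GLKD and 55146 CPM in chk2, emerin. CPM are gene counts scaled to a common library size after TMM normalization, a unit used for all comparisons between groups. The emerin sums ran from 29159 to 41487 CPM and the wild-type sums from 40550 to 53020 CPM, so that 1 emerin library, G/PI replicate 1, reached into the wild-type range.

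**Figure D1:**
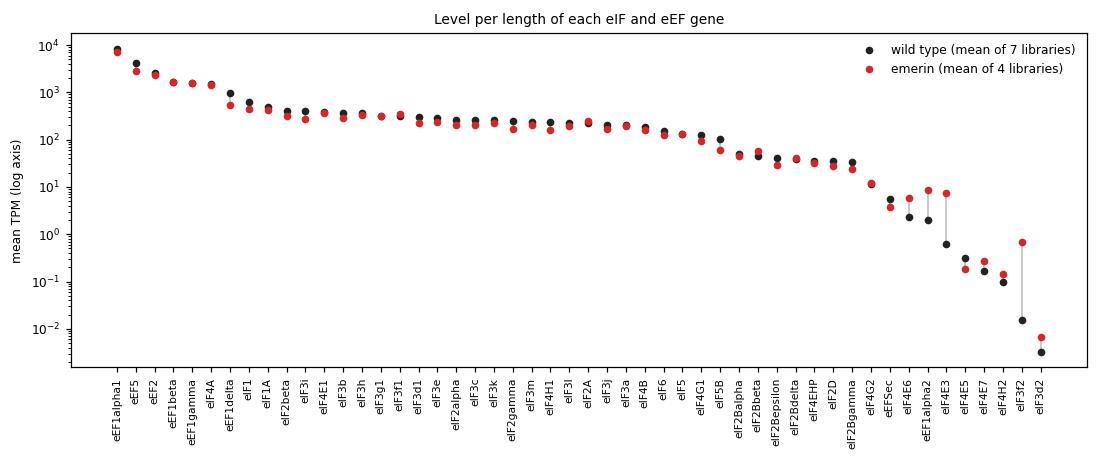
Mean TPM of each translation factor gene (log axis), in order of the wild-type level, for the wild type (black, 7 libraries) and emerin (red, 4 libraries). The elongation factor eEF1alpha1 is highest, the second copies are at the right end, and eEF1alpha2, eIF4E3 and eIF3f2 show the widest gaps. eIF4E4 and eIF3g2, listed at 0 TPM in all wild-type libraries, are not drawn.

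Each library held 18138657 to 28372959 counts. Ote, which encodes emerin, ran from 64.8 to 85.3 CPM across wild-type libraries, with 59.0 and 32.7 CPM in G/PI, at 17.9 and 11.7 CPM in G/PK and at 21.6 to 23.1 CPM in chk2, emerin. In nosgal4 it was at 61.5 and 82.1 CPM and in baf GLKD at 39.1 and 56.5 CPM. The baf gene was at 86.0 and 110 CPM in nosgal4 and at 66.4 and 72.5 CPM in baf GLKD, whose knockdown is limited to germ cells, and at 83.2 to 195 CPM in the wild type. It was at 76.8 to 96.6 CPM in emerin and at 51.6 to 75.1 CPM in chk2, emerin. The Chk2 gene lok had 194 to 248 CPM in the wild type and 14.3 to 16.0 CPM in chk2, emerin. Its level was 55.2 to 121 CPM in emerin, 246 and 286 CPM in nosgal4 and 137 and 144 CPM in baf GLKD. Of 11 germ-line marker genes, the summed level was 3626 to 5431 CPM in the wild type, 437 to 645 CPM in 3 emerin libraries and 1752 CPM in G/PI replicate 1. It was 5067 to 5174 CPM in nosgal4, 2018 to 2208 CPM in baf GLKD and 4921 to 5245 CPM in chk2, emerin. The 8 muscle sheath markers moved the other way, from 3362 to 6989 CPM in the wild type to 27272 to 31456 CPM in emerin and 14194 to 16071 CPM in baf GLKD. The 5 fat body markers likewise summed to 39.9 to 336 CPM in the wild type, 486 to 1885 CPM in emerin and 573 to 894 CPM in baf GLKD, and the 5 hemocyte markers to 106 to 310 CPM, 994 to 1784 CPM and 587 to 850 CPM. For 10 markers of follicle, escort, cap and terminal filament cells the sums were 306 to 657 CPM, 758 to 974 CPM and 719 to 893 CPM. Single markers did not all follow the sums. Of these 10, 5 were higher and 2 lower in emerin (edgeR, adjusted p under 0.05), and 5 were higher in baf GLKD. Of the 11 germ-line markers, 10 were lower and 1 higher in emerin, and 4 were lower in baf GLKD. Over all genes tested, 26.6% were lower and 28.3% higher in emerin, and 8.28% and 13.3% in baf GLKD. In whole ovaries, fewer cells of a type and less RNA per cell cannot be told apart, and the part of either in the values that follow was not tested. In 7 libraries (CS 1 and 2, yw 1 and 2, emerin G/PI 1, nosgal4 1 and baf GLKD 1), the deposited transcript tables hold 7.42 to 18.9 times fewer counts than the gene table. The gene table was therefore used for all tests.

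Most translation factors were lower in emerin mutants than in the wild type, and 4 genes went against that direction. Of the 51 members tested, 33 were lower and 4 higher (edgeR quasi-likelihood test, Benjamini-Hochberg adjusted p under 0.05 over all genes), and 14 did not pass. Over all 12762 genes tested, 26.6% were lower and 28.3% higher. The median log2 fold change was -0.47 over the members and 0.12 over all genes tested. Among the 42 members with at least 10 CPM on average, 40 had a log2 fold change below 0. The decreases were modest, with 2 of the 51 members past a decrease of 2-fold, beside 1081 of the 12762 genes. In 18 members every emerin library was below every wild-type library, as in 17.2% of all genes. The genotype-specific fits gave 20 lower members with G/PI alone, beside 2442 lower genes in all, and 32 with G/PK alone, beside 2959. Without G/PI replicate 1, the emerin library with the most germ-line marker RNA, 36 members were lower. No share of all genes is given here for that fit.

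**Figure D2:**
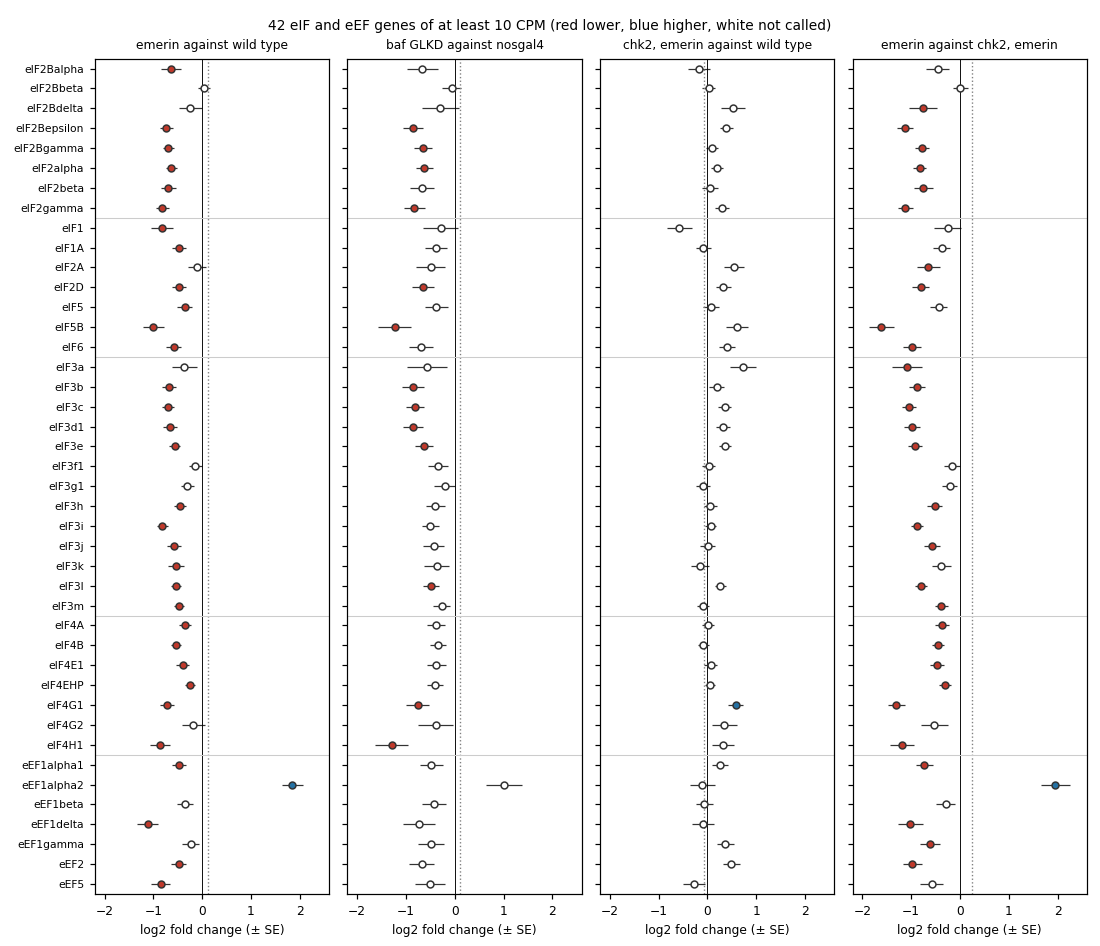
Log2 fold change (x axis, with its standard error) of the 42 members with at least 10 CPM on average, in the 4 main comparisons, ordered by role and separated by gray lines. Red marks members that were lower, blue those that were higher and white those that did not pass edgeR's test. The dotted line is the median of all genes tested. In emerin against wild type 40 of the 42 lie below 0, and eEF1alpha2 is the highest.

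Among the 8 genes of eIF2 and eIF2B, 6 were lower in emerin and none was higher. eIF2gamma, the GTP-binding subunit of eIF2, was at 351, 267, 248 and 261 CPM in the emerin libraries (G/PI 1, G/PI 2, G/PK 1 and G/PK 2) and at 399, 503 and 572 CPM as the lowest, median and highest of the wild type. The groups did not overlap, with a log2 fold change of -0.82 and an SE of 0.13 (edgeR, adjusted p = 9.35e-05). Exons of eIF2gamma overlap those of Su(var)3-9 on the same strand, so reads can be split between them. eIF2Bepsilon, the catalytic subunit of the exchange factor, was at 83.6, 53.7, 57.6 and 54.4 CPM against 86.7, 109 and 117 CPM, again with no overlap (log2 fold change -0.74, SE 0.13, adjusted p = 0.000223). The other members that fell were eIF2Bgamma (-0.69), eIF2beta (-0.69), eIF2Balpha (-0.64) and eIF2alpha (-0.63). The regulatory subunit eIF2Bbeta had a log2 difference of 0.04 (SE 0.12, adjusted p = 0.823), at 56.7 to 65.2 CPM in emerin and 46.5 to 67.0 CPM in the wild type. eIF2Bdelta, the other one that did not pass, varied from 35.8 to 114 CPM within the wild type.

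Of the 7 genes of start codon recognition and subunit joining, 6 were lower. eIF5B, the GTPase of subunit joining, lies on chromosome 3L from 3428658 to 3460977 on the minus strand. It was at 343 CPM in G/PI 1 and at 191, 190 and 186 CPM in G/PI 2, G/PK 1 and G/PK 2. The wild-type libraries ran from 349 over a median of 432 to 623 CPM. All emerin libraries were lower than any wild-type library, G/PI 1 by the least, and the log2 fold change came to -1.01 (SE 0.21, edgeR adjusted p = 0.00087). Without G/PI 1 it was -1.34. eIF1, which guards the fidelity of start codon choice, was at 176 to 216 CPM in emerin and 201 to 612 CPM in the wild type, where yw 1 was the highest. Its log2 fold change was -0.83 (SE 0.23, adjusted p = 0.00626), and the call was lost with CS alone as the wild type. eIF6 (-0.58), eIF2D (-0.48), eIF1A (-0.47) and eIF5 (-0.36) were also lower, eIF5 with an adjusted p of 0.0494. Its call was kept in 8 of 18 fits with a library left out and in 4 of 17 other settings, and was lost with DESeq2. eIF2A, which can deliver initiator tRNA in place of eIF2, had a log2 fold change of -0.11 (SE 0.19, adjusted p = 0.647).

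In eIF3, the scaffold complex on the small subunit, 10 of the 15 tested genes were lower. eIF3i was lowest at -0.82 on the log2 scale (SE 0.11, edgeR adjusted p = 1.7e-05), followed by eIF3c (-0.69), eIF3b (-0.68) and eIF3d1 (-0.66), a cap-binding subunit. eIF3b was at 838, 590, 549 and 594 CPM in the emerin libraries and between 851 and 1321 CPM in the wild type, with no overlap. eIF3d1 was at 503, 368, 338 and 348 CPM against 483 to 696 CPM, so that G/PI 1 lay within the wild-type range. eIF3l, eIF3k, eIF3h, eIF3m, eIF3e and eIF3j had log2 fold changes between -0.58 and -0.46. Among the subunits that did not pass, eIF3f1 (-0.14, adjusted p = 0.371) and eIF3g1 (-0.30, adjusted p = 0.063) had SEs of 0.13. eIF3a, the largest subunit, ran from 356 CPM in CS 2 to 1176 CPM in CS 1, a wider range than between the groups (-0.36, SE 0.26, adjusted p = 0.242).

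The eIF4 group, which binds the cap and unwinds the leader, was split: 6 of its 13 genes were lower and 2 higher. eIF4H1, a cofactor of the helicase (chromosome X, 16448665 to 16454972, plus strand), was at 592, 411, 384 and 501 CPM in emerin and at 665, 802 and 1168 CPM as the lowest, median and highest of the wild type (log2 fold change -0.86, SE 0.21, edgeR adjusted p = 0.0027). The scaffold eIF4G1, on chromosome 4 from 915297 to 930715 on the minus strand, was at 355, 522, 465 and 583 CPM against 669, 792 and 990 CPM. Its log2 fold change was -0.72 (SE 0.15, adjusted p = 0.000669), and here G/PI 1 was the lowest library, not the highest. Neither gene overlapped between the groups. eIF4B (-0.54), the cap-binding protein eIF4E1 (-0.40), the helicase eIF4A (-0.35) and the translational repressor eIF4EHP (-0.25, adjusted p = 0.0407) were lower by smaller amounts. The eIF4EHP call was kept in 13 of 18 fits with a library left out and in 7 of 17 other settings, and was lost with DESeq2 and with RLE normalization. Exons of the gene overlap those of Syx1A on the same strand. Of the 2 members that were higher, eIF4E3 and eIF4E6, more is given with their paralogues below.

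Among the 8 elongation genes, 5 were lower and 1 higher. The lowest member of all was eEF1delta, a nucleotide exchange subunit, at 410, 372, 303 and 310 CPM in emerin and at 448, 727 and 1247 CPM in the wild type (log2 fold change -1.11, SE 0.21, edgeR adjusted p = 0.000389). The highest wild-type value was again that of yw 1. With CS alone as the wild type the log2 fold change was -0.80, and with yw alone -1.44. eEF5 was at 1367, 1588, 1343 and 1369 CPM against 1743, 2300 and 4239 CPM, with no overlap (-0.85, SE 0.20, adjusted p = 0.00192). eEFSec, the factor that delivers selenocysteine, was at 4.30 to 6.11 CPM in emerin and 7.73 to 11.6 CPM in the wild type (-0.86, SE 0.16, adjusted p = 0.000225). eEF2 (-0.48, adjusted p = 0.018) and eEF1alpha1 (-0.47, adjusted p = 0.0128) were lower in the 4 libraries together. The level of eEF1alpha1 was 15025 CPM in G/PI 1 and 10174 to 10781 CPM in the other 3, and both calls were lost with G/PI alone. eEF1beta (-0.36, adjusted p = 0.0687) and eEF1gamma (-0.24, adjusted p = 0.254) did not pass.

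**Figure D3:**
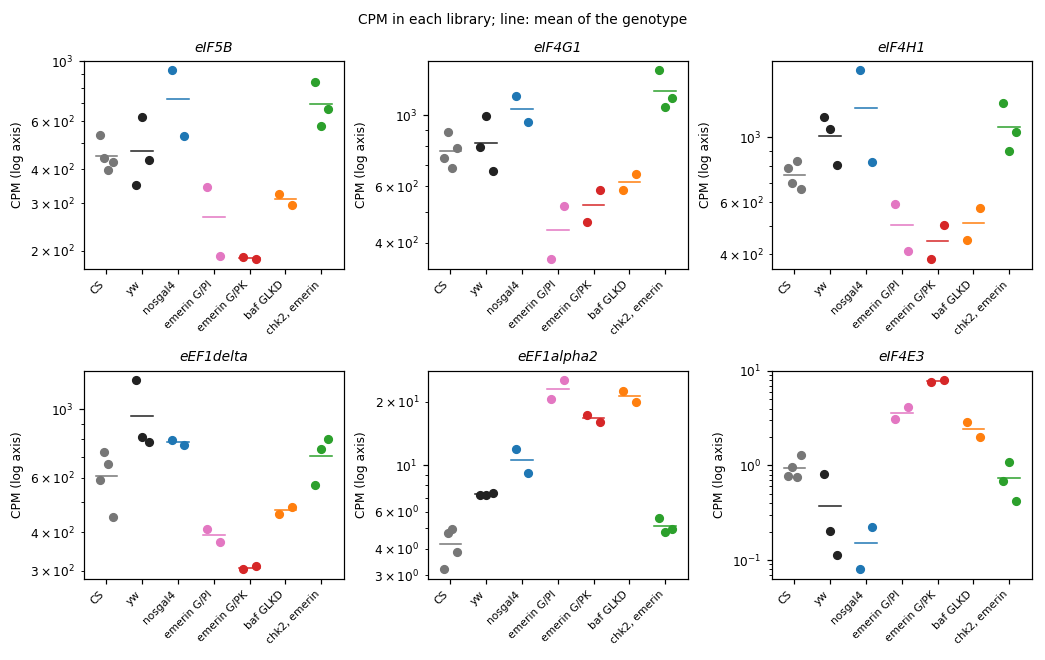
CPM of 6 members in each of the 18 libraries by genotype (log axis), with a line at the mean of the genotype. eIF5B, eIF4G1, eIF4H1 and eEF1delta are lower in emerin than in CS and yw, and eEF1alpha2 and eIF4E3 are higher there, with the chk2, emerin mean above those of CS and yw for the first 3.

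In germ-line baf knockdown the same members tended to be lower, but fewer passed, and the number that did varied with the libraries and the method used. Against nosgal4, 13 of 51 members were lower and 2 higher in edgeR's test, where 8.28% of all genes were lower and 13.3% higher. The median log2 fold change was -0.48 over the members and 0.11 over all genes. DESeq2 called 17 members lower (10.3% of all genes) and 3 higher (19.7%). An edgeR fit with 1 coefficient per genotype, which pools no strains or alleles, gave 19 lower and 3 higher members. Beside them, 1516 of all genes were lower and 2057 higher in that fit. All 13 lower members were also lower in emerin, which has no library in common with this comparison. The paper reports such sharing for almost every gene misregulated in baf GLKD, so the overlap is not particular to the members. Over the 42 members with at least 10 CPM on average, 40 had a log2 fold change below 0 in both. The fold changes of both comparisons were correlated across these members (Pearson r 0.85, Spearman rho 0.70). The members are not independent replicates and share their library preparation, and no correlation over all genes is given here.

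The lowest were eIF4H1, at 449 and 574 CPM in baf GLKD against 1687 and 822 CPM in nosgal4 (log2 fold change -1.29, SE 0.33, edgeR adjusted p = 0.0128), and eIF5B, at 325 and 295 CPM against 927 and 531 CPM (-1.23, SE 0.33, adjusted p = 0.0161). For both genes nosgal4 1 was well above nosgal4 2, and both baf GLKD libraries were lower than both controls. Without nosgal4 1 the log2 fold changes were -0.68 for eIF4H1 (adjusted p = 0.198) and -0.78 for eIF5B (adjusted p = 0.175). eIF2Bepsilon was at 67.3 and 76.5 CPM against 142 and 119 CPM (-0.86, SE 0.21, adjusted p = 0.00993). eIF3d1 was at 371 and 459 CPM against 734 and 768 CPM (-0.86, SE 0.21, adjusted p = 0.0108), and eIF3b at 718 and 820 CPM against 1498 and 1273 CPM (-0.85, SE 0.22, adjusted p = 0.0145). For these 3 genes, too, both knockdown libraries were below both controls. eIF2gamma (-0.83), eIF3c (-0.81), eIF4G1 (-0.76), eIF2D (-0.66), eIF2Bgamma (-0.66), eIF3e (-0.64), eIF2alpha (-0.63) and eIF3l (-0.49) also passed. Of these, eIF3l kept the call in 3 of 18 fits with a library left out and in 5 of 13 other settings, and eIF2D in 4 of 18 and 8 of 13, with losses also where the library left out belonged to another genotype. No elongation gene passed edgeR's test. At an unadjusted p under 0.05, 3 of the 8 were lower (14.8% of all genes) and 1 higher (20.3%), and DESeq2 called 2 lower (10.3% of all genes) and 1 higher (19.7%). eEF1delta stood at -0.74 (SE 0.33, edgeR adjusted p = 0.123). With a single library left out of either group, which leaves 1 library whose spread is assumed to be that of the other groups, 0 (without baf GLKD 1) to 9 (without baf GLKD 2) members were lower. It was 3 without nosgal4 1 and 5 without nosgal4 2. Scaling by library size alone moved the median of all genes from 0.11 to 0.28 and gave 8 lower and 3 higher members, beside 444 lower and 1819 higher genes in all (1057 and 1692 with TMM).

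In the chk2, emerin double mutant, 1 of the 51 translation factors passed the test against the wild type. It was higher, and none was lower (edgeR), where 2.82% of all genes were higher and 4.76% lower. Without adjustment, 13 members were higher at p under 0.05 (10.2% of all genes) and 1 lower (15.6%), and DESeq2 called 7 higher (7.08% of all genes) and none lower (10.9%). The median log2 fold change was 0.06, beside -0.07 over all genes. The member that passed was eIF4G1, at 1379, 1061 and 1129 CPM, all above the highest wild-type library at 990 CPM (log2 fold change 0.58, SE 0.16, adjusted p = 0.0346). It lost the call in 10 of 18 fits with a library left out and with yw alone as the wild type. eIF5B was at 839, 576 and 667 CPM against 349 to 623 CPM (0.60, SE 0.22, adjusted p = 0.101) and eIF3a at 1643, 1200 and 1308 CPM against 356 to 1176 CPM (0.73, SE 0.27, adjusted p = 0.107). For eEF1alpha2 the log2 fold change was -0.11 (SE 0.25) and for eIF4E3 it was 0.04 (SE 0.57), at 4.79 to 5.61 and 0.418 to 1.08 CPM. With CS alone as the wild type 4 members were higher, beside 530 of the 12762 genes. With yw alone 2 members were lower, beside 1223 genes.

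Set directly against chk2, emerin, the emerin libraries, which share the G/PK alleles in part, were lower in 31 members and higher in 5 (edgeR), where 22.7% of all genes were lower and 26.4% higher. This comparison shares the emerin libraries with the one against the wild type. The median was -0.58 over the members and 0.25 over all genes. The lowest were eIF5B (log2 fold change -1.61, SE 0.25, adjusted p = 6.51e-05), eIF4G1 (-1.31, SE 0.18, adjusted p = 1.68e-05), eIF4H1 (-1.19, SE 0.25, adjusted p = 0.000882), eIF2Bepsilon (-1.13, SE 0.16, adjusted p = 2.41e-05) and eIF2gamma (-1.12, SE 0.16, adjusted p = 2.67e-05). eIF4G1 was at 355 to 583 CPM in emerin and at least 1061 CPM in each double mutant library, and eIF2Bepsilon at 53.7 to 83.6 against 131 to 140 CPM. In 35 members all emerin libraries were below all 3 double mutant libraries, as in 27.2% of all genes. Members that passed here and not against the wild type were eIF3a (-1.09), eIF2Bdelta (-0.76), eIF2A (-0.65), eEF1gamma (-0.61) and, among those that were higher, eIF4E5 (1.74, adjusted p = 0.0471). The eIF4E5 value rests on the 29 counts of G/PI 1, beside 3 to 4 counts in the other emerin and 2 to 4 in the double mutant libraries. Without G/PI 1 it was 0.48 (adjusted p = 0.509), and the call was kept in 4 of 18 fits with a library left out. For eIF2Bdelta and eIF2A the call was kept in 12 and 13 of the 18. The members that were higher also included eEF1alpha2 (1.96, SE 0.29, adjusted p = 4.48e-05), eIF4E3 (2.97, SE 0.68, adjusted p = 0.00179), eIF4E6 (1.36) and eIF3f2. The 6 members that were lower than in the wild type and did not pass here were eIF2Balpha, eIF3k, eIF1A, eIF5, eIF1 (-0.25, adjusted p = 0.449) and eEF5 (-0.58, adjusted p = 0.0525). The double mutant levels were 213 to 250 CPM for eIF1 and 2049 to 2150 CPM for eEF5.

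Factors with more than 1 gene were compared as ratios within a library, which need no scaling between libraries. Of 13 pairs, 4 had a ratio of second to first gene that differed between emerin (n = 4) and the wild type (n = 7) after adjustment over 26 tests (exact two-sided permutation test over libraries, smallest possible p = 0.00606, adjusted p = 0.0394 for each), and 8 had an unadjusted p under 0.05. These were eEF1alpha2 to eEF1alpha1, eEF1delta to eEF1beta, eIF4E3 to eIF4E1 and eIF4E6 to eIF4E1. None of the 13 pairs passed between chk2, emerin (n = 3) and the wild type after adjustment (exact permutation test, smallest possible p = 0.0167), where no single pair could have passed even at that p, and 1 pair, eIF4E5 to eIF4E1, had an unadjusted p under 0.05 (0.0333, at a log2 difference of -0.71). For baf GLKD against nosgal4 the smallest possible p is 0.333 and for emerin against chk2, emerin 0.0571, so only the values are given. A total of 6 pairs share eIF4E1 as first gene.

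The eEF1alpha genes encode alternative forms of the factor that delivers aminoacyl-tRNA. In mammals the second form takes over in neurons and muscle. In the wild-type ovary eEF1alpha2 (chromosome 3R, 31738468 to 31743306, plus strand) had a mean of 2.02 TPM, 4163 times less than eEF1alpha1. It was at 3.20 to 4.98 CPM in CS and 7.22 to 7.40 CPM in yw, and at 20.6, 25.4, 17.4 and 16.0 CPM in emerin, above every wild-type library. It rose by 1.85 on the log2 scale (SE 0.22, edgeR adjusted p = 4.24e-06), between 1.45 with yw alone and 2.24 with CS alone as the wild type. It stood at 12.0 and 9.13 CPM in nosgal4 and at 22.6 and 19.99 CPM in baf GLKD (1.01, SE 0.36, adjusted p = 0.0562). The log2 ratio to eEF1alpha1 was -11.57 ± 0.48 (SD, n = 7) in the wild type, -9.20 ± 0.34 (n = 4) in emerin, -10.76 ± 0.26 (n = 2) in nosgal4, -9.25 ± 0.21 (n = 2) in baf GLKD and -11.88 ± 0.05 (n = 3) in chk2, emerin. Even so, eEF1alpha1 remained 831 times above eEF1alpha2 in TPM in emerin. The summed muscle sheath markers were also higher in emerin and baf GLKD, but the other genotypes differed. The marker sums were 5636 to 6989 CPM in CS and 3362 to 4414 CPM in yw, where eEF1alpha2 was higher than in CS. In nosgal4 the sums were 2803 and 3815 CPM, and eEF1alpha2 was above every wild-type library. The part of these markers in the level of eEF1alpha2 was not tested. The 5 neuron markers summed to 1090 CPM in CS 1, 892 CPM in yw 1 and 831 CPM in G/PI 1, and to 52.7 to 179 CPM in the other wild-type and 118 to 155 CPM in the other emerin libraries, with overlap.

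**Figure D4:**
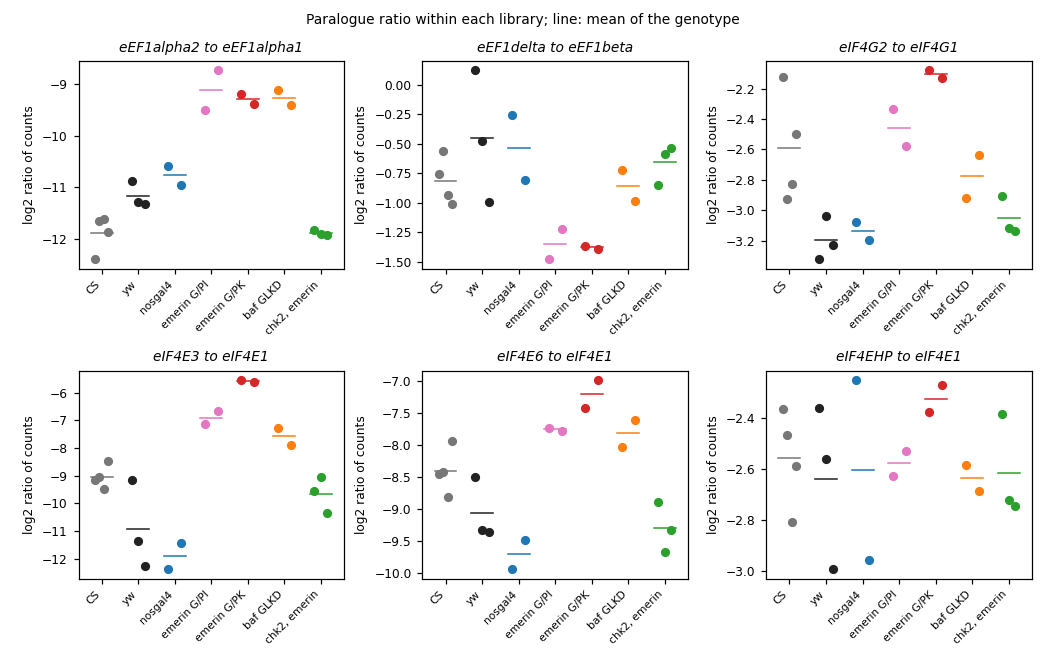
Log2 ratio of the counts of a second to a first paralogue within each library (0.5 added to each count), by genotype, with a line at the mean. eEF1alpha2, eIF4E3 and eIF4E6 gain on their partners in the emerin and baf GLKD libraries, eEF1delta loses on eEF1beta in emerin, and the ratio of eIF4EHP to eIF4E1 overlaps in all genotypes.

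The eIF4E family encodes cap-binding proteins, of which eIF4E1 is the general form and eIF4E3 is needed in the fly testis for sperm formation. eIF4E1 was the main form in every genotype, at a mean of 377.1 TPM in the wild type and 361 TPM in emerin. eIF4E3 (chromosome 3L, 8229224 to 8230568, plus strand) had 2 to 34 counts per library in the wild type, 2 and 5 counts in nosgal4 and 11 to 22 counts in chk2, emerin. In the emerin libraries there were 76, 80, 152 and 153 counts, and in baf GLKD 75 and 42. These are 3.10 to 8.02 CPM in emerin against 0.114 to 1.30 CPM in the wild type, with no overlap. The log2 increase was 3.00 (SE 0.49, edgeR adjusted p = 9.23e-05) in emerin and 3.99 (SE 0.94, adjusted p = 0.00835) in baf GLKD, where the call was lost without nosgal4 1. Both G/PK libraries were higher than both G/PI libraries, and G/PI minus G/PK was -1.10 on the log2 scale (SE 0.64, edgeR adjusted p = 0.637), which did not pass. eIF4E6, which like eIF4E3 has few counts in the ovary, was at 1.92 to 3.14 CPM in emerin against 0.903 to 1.87 CPM in the wild type (0.82, SE 0.27, adjusted p = 0.0189) and at 1.71 and 2.47 CPM in baf GLKD against 0.521 and 0.931 CPM in nosgal4 (1.52, SE 0.46, adjusted p = 0.0274). The emerin call was lost without G/PK 2 and the baf GLKD call without any 1 of its 4 libraries. eIF4EHP, a repressor that binds the cap without eIF4G, kept a log2 ratio to eIF4E1 of -2.59 ± 0.23 (n = 7) in the wild type and -2.45 ± 0.16 (n = 4) in emerin (exact permutation p = 0.333).

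The remaining eIF4E genes were near the detection limit. eIF4E4 had 27 of its 44 counts in emerin G/PI 1 and 10 in baf GLKD 1, and was at 0 in 11 libraries. eIF4E5 had 29 counts in G/PI 1 and 14 in baf GLKD 1, and 2 to 6 in each other library. eIF4E7 had 15 or fewer counts in every library. Their log2 fold changes in emerin did not pass (adjusted p = 0.0552, 0.0792 and 0.63). The 10 testis markers, given because eIF4E3 is known from testis, summed to 6.11 to 15.7 CPM in the wild type, 25.7 CPM in G/PI 1, 8.40 to 12.4 CPM in the other emerin libraries, 15.5 and 9.83 CPM in baf GLKD and 11.9 to 13.8 CPM in chk2, emerin. Of them, 5 were higher in emerin by edgeR, where 28.3% of all genes were higher, and 0 were higher in baf GLKD, where 13.3% were. Within emerin eIF4E3 was lowest in G/PI 1, where the testis markers were highest. The part of these markers in the level of eIF4E3 was not tested.

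In the exchange complex, eEF1beta and eEF1delta both reload eEF1alpha. The log2 ratio of eEF1delta to eEF1beta was -0.66 ± 0.40 (n = 7) in the wild type and -1.36 ± 0.11 (n = 4) in emerin, a difference of -0.71, with -0.53 ± 0.39 in nosgal4, -0.85 ± 0.18 in baf GLKD and -0.66 ± 0.17 in chk2, emerin. The wild-type libraries spread from -1.01 to 0.12, all above the emerin range of -1.48 to -1.22. In TPM eEF1beta was 1.78 times eEF1delta in the wild type and 2.98 times in emerin. For the scaffolds, eIF4G2, known for its need in male meiosis, had 71.2 to 170 CPM in the wild type and 70.3 to 133 CPM in emerin (log2 fold change -0.18, SE 0.23, edgeR adjusted p = 0.525). Its log2 ratio to eIF4G1 differed by 0.57 between emerin and the wild type, with an adjusted p of 0.13 in the exact permutation test. An exon of eIF4G2 overlaps CG33111 on the same strand.

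The second copies of eIF3 subunits and of eIF4H were close to silent. eIF3f2 had 4 or fewer counts in each wild-type library and was at 0 in 4 of them. It had 4 and 2 counts in G/PI and 25 and 14 in G/PK, 12 and 6 in baf GLKD, 2 and 4 in nosgal4 and 3 or fewer in chk2, emerin. It passed as higher in emerin (edgeR adjusted p = 0.00431), though not with G/PI alone, and no fold is given at these counts. eIF3d2 had 14 counts in all, 6 of them in G/PI 1, and was at 0 in 13 libraries. eIF4H2 had 0 to 17 counts per library with no group apart (emerin log2 fold change 0.52, SE 0.74). How the counting shared reads between first and second copies was not tested.

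Several members are read from more than 1 transcript, and in the 11 libraries with full transcript tables the shares of some transcripts stood apart in some genotypes. These transcripts were chosen after their values were seen, and the shares are a description with no test. In eIF4E1 (chromosome 3L, minus strand), the transcripts RB and RC start at the same base, 9402460. RB held 45.3, 47.8, 46.1 and 47.4% of the TPM of the gene in CS 3, CS 4, yw 3 and nosgal4 2, but 29.99, 23.3 and 23.9% in emerin G/PI 2, G/PK 1 and G/PK 2. RC held 26.5, 24.4, 24.3 and 22.3% in the former and 37.4, 40.7 and 43.0% in the latter. The emerin shares were thus outside the range of the other strains for both. The double mutants were at 50.5 to 51.4% for RB and 18.5 to 21.0% for RC, and baf GLKD 2 lay between at 37.1 and 29.5%. In eIF1A, RC held 17.0 to 20.5% in the 4 control libraries, 26.5 to 30.04% in emerin and 12.5 to 16.6% in chk2, emerin. In eIF2Bdelta, RC held 4.94 to 18.6% in the same controls, 39.9 to 52.9% in emerin and 34.8 to 53.3% in chk2, emerin. The share in baf GLKD 2 was 46.2%. In the 7 libraries with the smaller tables the eIF4E1 RC share was 12.3 to 19.0%, emerin G/PI 1 included, so shares were not compared across the sets.

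**Figure D5:**
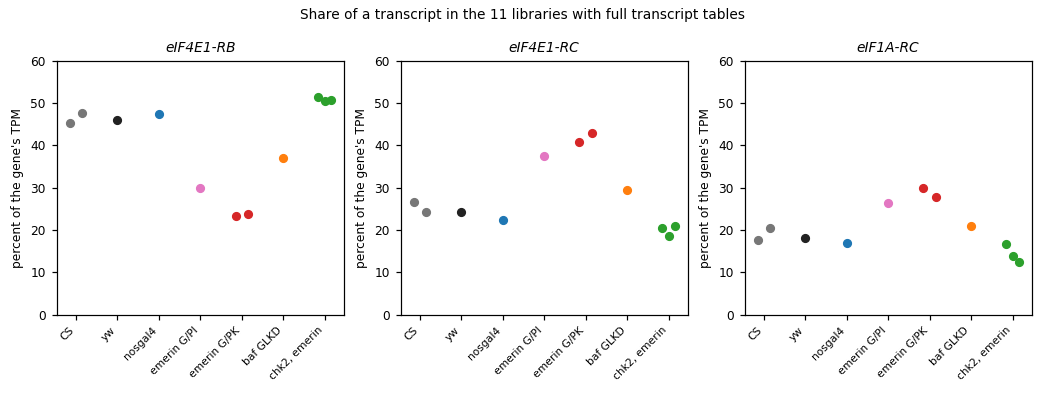
Share of a gene's TPM held by eIF4E1-RB, eIF4E1-RC and eIF1A-RC in the 11 libraries with full transcript tables, by genotype (each point 1 library). The 3 emerin libraries lie below the controls for eIF4E1-RB and above them for the other 2 transcripts, and the 3 double mutant libraries lie at or past the controls on the other side.

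Among the reference strains and between the emerin alleles, few members passed edgeR's test. G/PI and G/PK had no member past the threshold in either direction (edgeR), where 0.611% of all genes were higher in G/PI and 0.0862% lower. Before adjustment, 3 were higher (6.42% of all genes) and 1 lower (2.77%) at p under 0.05, and DESeq2 called none (1.85% of all genes higher and 0.468% lower). The median was 0.28 over the members and 0.04 over all genes, and in 33 of the 42 members with at least 10 CPM on average G/PI 1 was the highest emerin library. Between CS and yw, 6 members were lower in CS and none higher, where 6.06% of all genes were lower and 6.37% higher. At an unadjusted p under 0.05, 2 were higher in CS (13.5% of all genes) and 12 lower (14.6%). DESeq2 called none higher (10.1%) and 9 lower (10.6%). The median log2 fold change was -0.19 over the members and 0.01 over all genes. Of the 42 members with at least 10 CPM on average, 36 had a log2 fold change below 0. The 6 were eIF1 (-0.84), eEF1alpha2 (-0.80), eEF5 (-0.70), eEF1delta (-0.64), eIF5 (-0.56) and eIF2Bgamma (-0.39), of which eIF1, eEF5, eEF1delta and eIF5 were highest in yw 1. Without yw 1, eEF5 and eEF1delta lost the call. Against the wild type, nosgal4 was higher in 1 member, eEF1alpha2 (log2 fold change 0.93, SE 0.17, adjusted p = 0.011), and lower in none, where 0.917% of all genes were higher and 0.901% lower, and the call was lost without nosgal4 1. At an unadjusted p under 0.05, 2 members were lower in nosgal4 (7.15% of all genes) and 7 higher (7.14%), and DESeq2 called none lower (3.57%) and 1 higher (2.18%).

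Other genes of translation were read from lists of regulators and mitochondrial factors. Of 24 other translation regulators measured (2 listed names, S6 and Tor, were not matched and are not analysed here), 15 were lower and 2 higher in emerin, 9 lower and 2 higher in baf GLKD, and 1 lower and 5 higher in chk2, emerin. Over all genes, 26.6% were lower and 28.3% higher in emerin, 8.28% and 13.3% in baf GLKD, and 4.76% and 2.82% in chk2, emerin. The 2 that were higher in emerin and in baf GLKD were Thor, the fly 4E-binding protein that blocks eIF4E, and mxt, another eIF4E-binding protein. Thor had a mean of 64.8 CPM in the wild type, 204 CPM in emerin, 37.4 CPM in nosgal4, 121 CPM in baf GLKD and 27.5 CPM in chk2, emerin. Its log2 fold change was 1.65 in emerin (edgeR adjusted p = 4.76e-06), 1.70 in baf GLKD (adjusted p = 0.00301) and -1.24 in chk2, emerin (adjusted p = 0.00726), the 1 regulator that was lower there. mxt rose by 1.24 in emerin (adjusted p = 7.98e-08) and 1.08 in baf GLKD (adjusted p = 0.000475). cup, a germ-line eIF4E-binding repressor of maternal mRNAs, was lower in emerin (log2 fold change -2.48, adjusted p = 5.39e-06), and me31B, its partner in RNA granules, stood at -1.96 (adjusted p = 0.000125). The release factor eRF3 (-0.95) and the poly(A)-binding protein gene pAbp (-0.58) were lower too. Of 9 mitochondrial translation factors measured, 8 were lower in emerin, 6 in baf GLKD and none in chk2, emerin, where 3 were higher, to be read against the same shares of all genes. Their median log2 fold change in emerin was -0.47, against -0.47 for the eIF and eEF members.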

How the data were processed

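The authors trimmed paired reads with Trim Galore (0.6.6 in the submitters' processing notes) and estimated transcript abundance with kallisto 0.46.1 on BDGP6, and tximeta summed the estimates per gene. In the deposited gene table are expected counts (estimated counts) that the authors left unscaled, and its values are whole numbers. The deposited transcript tables hold expected counts, TPM and effective lengths, the last classed as "other" among units. Strand use in counting is not given in the sources used here, so genes with antisense partners cannot be told apart from them.

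Symbols and positions came from the BDGP6.54 annotation (14194 of 14237 gene IDs matched). The members and gene lists were chosen with earlier results of these data known. The tests covered the 12762 genes with at least 10 counts summed over the libraries. Counts were TMM-normalized and fitted with edgeR 4.0.16 (limma 3.58.1, R 4.3.3) by the quasi-likelihood test with 5 coefficients (CS and yw together, both emerin genotypes together, nosgal4, baf GLKD, and chk2, emerin) and with 7 for comparisons of single genotypes. Adjusted p-values are Benjamini-Hochberg over all genes tested, threshold 0.05. Paralogue ratios are log2 ratios of gene counts with 0.5 added, tested by exact permutation over libraries. The eIF4A pair was left out because its partner is not named eIF in the annotation. Library depth was 18138657 to 28372959 counts (median 23468848). Libraries of a genotype differed by more than sampling noise (chi-square per degree of freedom 17.3 to 218).

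Values were given for both genes of each pair, for the 5 highest and 5 lowest called members per main comparison with at least 10 CPM in a group, and for the 5 of highest mean TPM (29 genes). Others are given by count, range or fold change, and the germ-line marker nos was not matched. Alternatives were DESeq2 1.42.0 with and without a transcript length offset, RLE or library size scaling, no filter or filterByExpr, other reference or emerin sets, blocks by replicate number or library set, removal of the length trend (lowess span 0.3), transcript-table counts, stricter thresholds, only the compared libraries, each library left out and, chosen after seeing the data, the 11 libraries with full transcript tables and CS alone with the replicate block for chk2, emerin. The fits were tested on simulated data. Tables and figures were made in Python 3.11.15 with matplotlib 3.10.9, scipy 1.17.1, pandas 2.3.3 and numpy 2.4.6.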

Additional observations from a re-analysis of the deposited data

Results flagged for a closer look

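Single libraries stood far from the others of their group in 14 of 56 sets of values for the named genes, by a test of the gap to the nearest library that marks about 1 set in 20 by chance (groups of 4 emerin or 7 wild-type libraries). In 8 of them the library was emerin G/PI 1. It was above the other emerin libraries for eEF1alpha1 (15025 CPM against 10174 to 10781), eEF2 (7242 CPM against 4718 to 5007), eEF1gamma (3009 CPM against 1897 to 1985), eIF3b (838 CPM against 549 to 594), eIF5B (343 CPM against 186 to 191) and eIF2Bepsilon (83.6 CPM against 53.7 to 57.6). It was also above them for eIF4E4 (1.10 CPM against 0) and eIF4E5 (1.18 CPM against 0.157 to 0.207). The same library had the highest germ-line marker sum of its group, 1752 CPM against 437 to 645, and was also highest in neuron markers (831 CPM against 118 to 155) and testis markers (25.7 CPM against 8.40 to 12.4). G/PI 1 is also the only emerin library among those with the smaller transcript tables. The part of these markers, or of the library set, in these levels was not tested.

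The other 6 were spread over libraries. eEF5 was higher in emerin G/PI 2 (1588 CPM against 1343 to 1369) and in yw 1 (4239 CPM against 1743 to 2818). eIF4E6 was higher in emerin G/PK 2 (3.14 CPM against 1.92 to 2.04). The rest rested on few counts, with eIF4H2 at 0.534 CPM in CS 4 (others 0.0950 to 0.203), eIF3d2 at 0.0508 CPM in CS 3 (others 0) and eIF4E4 at 0.0950 CPM in yw 1 (others 0 to 0.0410).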

How the results depend on the processing

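Over 138 results for named genes and pairs, 4255 comparisons with alternatives gave 3834 with the same call and direction, 214 lost and 102 gained calls, 105 changes of sign in which neither value passed, and no reversal of a called value. In emerin against wild type, 19 of 33 lower and 2 of 4 higher members kept the call in every alternative other than the stricter thresholds. So did 20 of 31 lower and 3 of 5 higher members in emerin against chk2, emerin, and none of the 13 lower and 2 higher in baf GLKD, the 1 in chk2, emerin, the 6 between CS and yw and the 1 in nosgal4. In emerin against wild type, lower members numbered 2 at a change of at least 2-fold and 20 with G/PI alone, beside 1081 and 2442 of all genes. For baf GLKD against nosgal4, lower members numbered 17 with DESeq2, 18 with its length offset and 19 with 1 coefficient per genotype. In baf GLKD against nosgal4, there were 2 lower and 1 higher at an adjusted p under 0.01, 2 lower at 2-fold, 8 lower by library size only, and none in the second library set only. With each library left out the range was 0 to 18 lower and 0 to 3 higher. In chk2, emerin against wild type, the count of higher members was 0 at an adjusted p under 0.01, at 2-fold, by library size only, with yw only and with only the libraries compared. It was 7 with DESeq2, 5 with its length offset, 4 with CS only and in the second library set, 3 with the library set block and after length trend removal, and 0 to 1 with a library left out. Lower members numbered 1 with 1 coefficient per genotype and 2 with yw only, beside 1075 and 1223 of all genes. In emerin against chk2, emerin, higher members were 3 at 0.01, with 1 coefficient per genotype and with only the libraries compared (3 to 6 with a library left out), and 8 were lower at 2-fold. In G/PI against G/PK, 0 to 1 was higher with a library left out. In CS against yw, lower members were 3 at 0.01, 0 at 2-fold, 10 with the length offset, 3 with transcript-table counts, 1 with only the libraries compared and 0 in the second library set, and 0 to 1 was higher with a library left out. The nosgal4 call was lost (0) at 0.01, at 2-fold, with transcript-table counts, with only the libraries compared, in the second library set and in some fits with a library left out (0 to 1). The causes were not tested, apart from fewer libraries in the smaller sets.

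With the replicate number as a block, 3 members were lower in CS against yw, and no other count moved by over 1.5 times. The correlation of same-numbered libraries was 0.0539 to 0.432 for CS and yw, 0.0077 to 0.216 for chk2, emerin and yw, and 0.0294 for G/PI and G/PK. The numbers were not taken to pair those samples. For baf GLKD and nosgal4 the correlation was 0.524, the highest here, and 2 pairs cannot decide whether the numbers pair them. Replicate 1 of both has a smaller transcript table and replicate 2 a full one. With the replicate block, 14 members were lower and 2 higher in baf GLKD against nosgal4, beside 991 and 1691 of all genes. Between chk2, emerin and CS the correlation was 0.181 to 0.455, and all 3 libraries of each correlated best with their own number. With CS alone as the wild type and the replicate block, a fit added after seeing the data, 2 members were higher and 0 lower in chk2, emerin. For the emerin paralogue ratios, 8 pairs passed with 5 added to each count. With a library left out 0 to 5 passed, where the smallest possible p is larger. No pair could pass with yw only, G/PK only or G/PI only, because the smallest possible p in those sets is above 0.05. Low counts limit eIF3d2, eIF3f2, eIF3g2, eIF4E4, eIF4E5, eIF4E7 and eIF4H2.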
